A study of Homo sapiens with 2 samples.

Results

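Cyclins, cyclin-dependent kinases (CDKs) and CDK inhibitors were examined as 1 group in NB4 cells after knockdown of the long non-coding RNA CRNDE. The members were chosen by gene symbol: cyclins with the letters A to L, T or Y, CDKs with a number, and the CDKN1, CDKN2 and CDKN3 inhibitors, with CDKN1A left out. The rule found 41 of the 11619 genes with a value. CDKN1C, CDKN2A, CDKN2B, CCNB3, CDK14, CDK15, CDK18 and CDK20 were not analysed here.

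NB4 is a human acute promyelocytic leukemia (APL) line that carries the PML/RARα fusion, so both groups have it. One group was infected with a lentivirus for a CRNDE shRNA (sh-CRNDE) and the other with a lentivirus for a control shRNA (sh-Control), and RNA was taken on day 3. The vector, pLVX-shRNA2, also carries the ZsGreen1 marker, and which CRNDE shRNA the sequenced cells held is not given in the sources used here. Each group is 1 library, so the differences below are without replicates and carry no p-value. The sh-Control cells are called control cells below, and the sh-CRNDE cells knockdown cells. Levels are FPKM, that is fragments per kilobase of a gene's transcript, scaled to the fragments mapped in the library, and the depth behind them is unknown. Changes are log2(FPKM + 1) in sh-CRNDE less sh-Control, a scale that understates the change of low genes. A gene was called higher or lower when its change was past 1.5-fold, which is 0.585 on this scale, and "rose" and "fell" are used only of such genes. CRNDE itself (ENSG00000245694) fell by 1.28, from 5.92 to 1.85 FPKM.

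A CDK is a protein kinase that needs a cyclin bound to it to be active. The D cyclins with CDK4 and CDK6 act in G1 and phosphorylate the RB family, the E and A cyclins with CDK2 act at the start of and through S phase, and the A and B cyclins with CDK1 act in G2 and mitosis. Other pairs act on transcription: cyclin H with CDK7 and the T cyclins with CDK9 phosphorylate RNA polymerase II, and cyclin C with CDK8 or CDK19 belongs to the Mediator complex. The INK4 inhibitors bind CDK4 and CDK6, and the CIP/KIP inhibitors bind cyclin-CDK pairs more broadly. Much of the control of cyclins and CDKs is on the protein, which RNA levels do not measure.

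Of the 41 members, 6 rose and 5 fell, which leaves 30 short of the threshold. Thus 26.8% of the members were past 1.5-fold, beside 17.2% of all 11619 genes, with 8.38% of all genes higher and 8.83% lower. The gap was smaller with a pseudocount of 0.1, where 6 members were higher and 7 lower, beside 28.4% of all genes. With genes under a mean of 1 FPKM left out, 6 of 39 members rose and 5 fell, beside 8.15% higher and 8.78% lower of 9415 genes, 16.9% in all. Past 2-fold, 3 members rose and 1 fell, beside 3.43% and 3.23% of all genes. The 6 that rose were CCND2, CCNC, CCND1, CCNF, CCNT2 and CDKN3, and the 5 that fell were CCNY, CCNA2, CDK9, CCNI and CDK2. The median change of no class was past the threshold. The classes below hold 5 to 14 members each, too few to read their counts as results about a class. The median change over all 41 members was 0.0021, with 21 members above 0 and 20 below, and the median over all genes was -0.0072. The middle 50% of members lay between -0.26 and 0.27, and that of all genes between -0.26 and 0.23. CDK2 at -0.5879 was the member just inside the threshold, and CCNT1 at -0.5575 was the one just outside.

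No member was listed at 0 in either library. A mean of at least 1 FPKM was reached by 39 members, and the other 2 were CCNA1 and CDK3. At least 10 FPKM in either library was reached by 16 members. FPKM is a level per transcript length, so the members can be ranked within a library. CCNB1, the main mitotic cyclin, was the highest member in both libraries. Cyclin A2 (CCNA2) was 2nd in sh-Control and 6th in sh-CRNDE, whereas cyclin D2 (CCND2) was 14th in sh-Control and 2nd in sh-CRNDE. In sh-CRNDE, CCND2 had a higher FPKM than 97.3% of all genes, and in sh-Control than 73.6%.

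**Figure D1:**
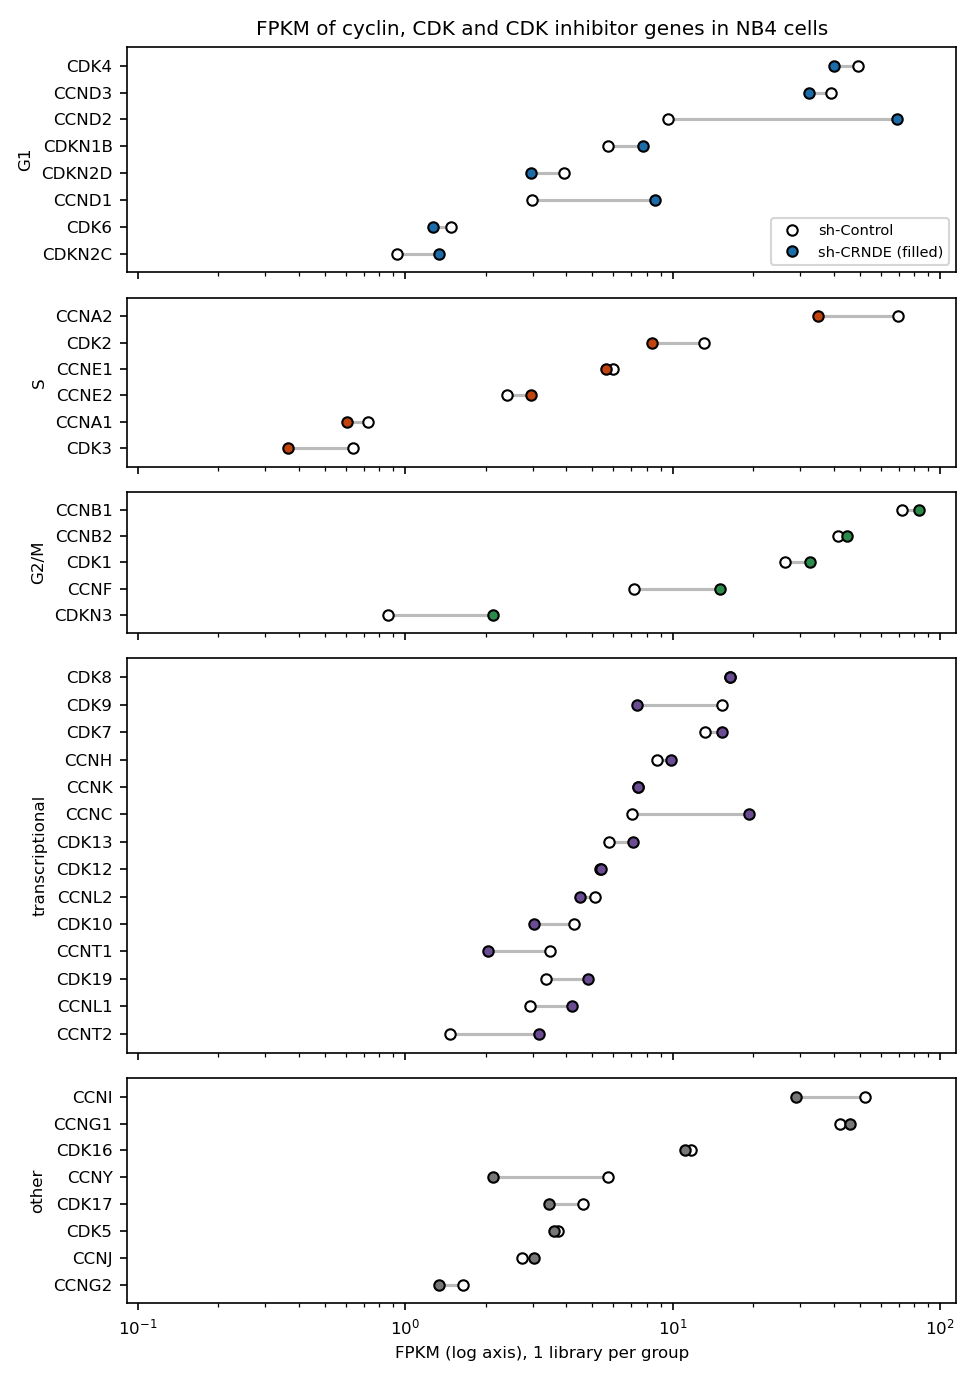
FPKM of each of the 41 members, grouped by class, in sh-Control and sh-CRNDE on a log axis, 1 point per library. CCND2 moves from 9.64 to 69.0 FPKM and CCNA2 from 69.5 to 34.9 FPKM, while CCNB1 is highest in both libraries.

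The 8 members that act in G1 had a median change of 0.07, and 2 of them rose. Both were D cyclins, and no G1 member fell. CCND2 (ENSG00000118971, GRCh38 chr12:4269771-4305353, plus strand, 5 exons), the D cyclin commonly found in blood cells, was at 9.64 FPKM in control and 69.0 FPKM in knockdown cells. It rose by 2.72, a 7.15-fold ratio of FPKM, and 0.405% of all genes had a higher change. CCND1 (ENSG00000110092, chr11:69641156-69654474, plus strand, 5 exons) was at 2.98 FPKM in control and 8.56 FPKM in knockdown cells, and 2.27% of all genes had a higher change than its 1.26. The remaining D cyclin, CCND3, was not past the threshold and its value went the other way, with 39.1 FPKM in control and 32.4 FPKM in knockdown cells, a change of -0.26.

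The make-up of the D cyclin RNA therefore differed between the libraries. The summed FPKM of the D cyclins was 51.8 in control and 109.9 in knockdown cells, a ratio of 2.12. CCND3 made up 75.6% of this sum in control and 29.5% in knockdown cells. CCND2 made up 18.6% in control and 62.7% in knockdown cells. The share of CCND1 was 5.76% in control and 7.79% in knockdown cells, and CCND3 itself was not past the threshold. CCND2 was lower than CCND3 in sh-Control and higher in sh-CRNDE.

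The kinases that the D cyclins bind were not past the threshold. CDK4 was at 49.1 FPKM in control and 40.1 FPKM in knockdown cells, a change of -0.29. CDK6 was low, with 1.48 FPKM in control and 1.27 FPKM in knockdown cells, so CDK4 made up 97.1% and 96.9% of the pair. The ratio of summed D cyclin FPKM to summed CDK4 and CDK6 FPKM was 1.02 in control and 2.66 in knockdown cells.

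The G1 inhibitors with a value were all short of the threshold. CDKN1B, which encodes the CIP/KIP inhibitor p27, was at 5.74 FPKM in control and 7.76 FPKM in knockdown cells, a change of 0.38. CDKN2C, an INK4 inhibitor, was at 0.932 FPKM in control and 1.33 FPKM in knockdown cells, a change of 0.27. CDKN2D, another INK4 inhibitor, was at 3.93 FPKM in control and 2.96 FPKM in knockdown cells, a change of -0.32. The INK4 sum was 4.86 FPKM in control and 4.29 FPKM in knockdown cells, and the CDKN2C share of it was 19.2% and 31.1%.

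Of the 6 members that act at the start of S phase or through it, 2 fell and none rose. That is 33.3% of the class past 1.5-fold, beside 17.2% of all genes. The median change of the class was -0.18, and -0.43 with a pseudocount of 0.1. CCNA2 (ENSG00000145386, chr4:121816444-121823883, minus strand, 8 exons), the A cyclin of dividing somatic cells, was at 69.5 FPKM in control and 34.9 FPKM in knockdown cells. It fell by 0.98, to 0.501 of the control level, and 3.34% of all genes had a lower change. CDK2 (chr12:55966781-55972789, plus strand, 7 exons), its kinase in S phase, was at 13.04 FPKM in control and 8.34 FPKM in knockdown cells. Its fall of 0.59 lay so close to the threshold that centring the changes on their median placed it at -0.58, not past it.

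The other 4 members of this class were not past the threshold. CCNE1, which activates CDK2 at the start of S phase, was at 5.99 FPKM in control and 5.65 FPKM in knockdown cells. Its paralogue CCNE2 was at 2.41 FPKM in control and 2.95 FPKM in knockdown cells, a change of 0.21. CCNE1 made up 71.3% of E cyclin RNA in control and 65.7% in knockdown cells. CCNA1, the A cyclin of the germ line that is also known from myeloid leukemia, was under 1 FPKM in both libraries, with 0.725 in control and 0.606 in knockdown cells. CDK3 was also under 1 FPKM, with 0.636 in control and 0.364 in knockdown cells, and its change of -0.26 became -0.67, past the threshold, with a pseudocount of 0.1. It shares exons with the read-through gene TEN1-CDK3, so the assignment of its reads is uncertain. CCNA2 made up 99.0% of A cyclin RNA in control and 98.3% in knockdown cells.

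The 5 members that act in G2 and mitosis all had changes above 0, with a median of 0.29, and 2 of them rose. That is 40.0% of the class past 1.5-fold, beside 17.2% of all genes. The median was 0.08 relative to genes of like GC content. CCNF (ENSG00000162063, chr16:2429394-2458854, plus strand, 17 exons), which encodes the F-box protein cyclin F of an SCF ubiquitin ligase and not a CDK activator, was at 7.15 FPKM in control and 15.01 FPKM in knockdown cells. It rose by 0.97, a 2.10-fold ratio. CDKN3 (ENSG00000100526, chr14:54396849-54420218, plus strand, 8 exons), a phosphatase that removes the activating phosphate from CDKs, rose by 0.75, from 0.864 FPKM in control to 2.14 FPKM in knockdown cells.

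The core mitotic pair was not past the threshold. CCNB1 was at 72.0 FPKM in control and 83.0 FPKM in knockdown cells, a change of 0.20. CCNB2 was at 41.4 FPKM in control and 44.9 FPKM in knockdown cells, and its share of B cyclin RNA stayed near that of the control, since CCNB1 made up 63.5% and 64.9%. CDK1, the kinase of both, was at 26.4 FPKM in control and 32.6 FPKM in knockdown cells, a change of 0.29.

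The balance of CCNA2 and the mitotic members thus differed between the libraries. The ratio of CCNA2 to CCNB1 was 0.965 in control and 0.42 in knockdown cells. The ratio of CCNA2 to CDK1 was 2.63 in control and 1.07 in knockdown cells. The ratio of CCNA2 to CDK2, which both fell, was 5.33 in control and 4.18 in knockdown cells. In summed FPKM, the S members were at 92.3 in control and 52.8 in knockdown cells, while the G2 and mitosis members were at 147.8 and 177.6. CCNA2 made up most of the S sum in both libraries. The E cyclins, also S members, summed to 8.40 FPKM in control and 8.60 FPKM in knockdown cells. In a culture of mixed cell cycle phases, fewer cells in a phase and less RNA per cell cannot be told apart.

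CCNA2 and the mitotic members are known as genes whose transcription peaks late in the cell cycle. Their promoters often carry CCAAT boxes, to which NF-Y binds, and a cell cycle homology region (CHR), to which the DREAM complex binds. The stretches below, of 30 bases each, are shown because CCNA2 fell, CCNF and CDKN3 rose and CCNB1 and CDK1 were not past the threshold among these late genes. They are from the RefSeq promoters of GRCh38.p14, read 5′ to 3′ on the gene's strand, and capitals mark a CCAAT box (CCAAT or ATTGG), a CHR (TTTGAA or TTCAAA) or the cyclic AMP response element TGACGTCA.
CCNA2, chr4:121823946-121823975: gtcgccttgaaTGACGTCAaggccgcgagc
CCNB1, chr5:69167082-69167111: tgccacgaacaggCCAATaaggagggagca
CCNF, chr16:2429339-2429368: ggCCAATgggagggccgggtgcgTTTGAAa
CDK1, chr10:60778394-60778423: gctctgATTGGctgcTTTGAAagtctacgg
CDKN3, chr14:54396825-54396854: tcccgcgcgtctTTCAAAggtcttctagga

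CCNF and CDK1 hold a CCAAT box and a CHR within the same 30 bases. Counted from the RefSeq start, which is also the start of the canonical transcript in GENCODE for these 5 genes, the first base shown is at -92 for CCNA2, -68 for CCNB1, -108 for CCNF, -84 for CDK1 and -182 for CDKN3. The annotated genes CCNB1, CCNF, CDK1 and CDKN3 begin upstream of that start, as their spans take in other transcripts, so the CDK1 stretch and the end of the CDKN3 stretch lie inside the gene span. A RefSeq promoter of 300 bases, 250 before the start and 50 after it, was matched for 37 of the 41 members, and CCND1, CCND2, CCNE2 and CDK2 are named only. On either strand, TTTGAA was present in 4 of the 37, namely CCNB2, CCNF, CDK1 and CDKN3, which is 10.8% beside 15.2% of all 35116 promoters in the table. CCAAT was present in 16 of the 37, or 43.2% beside 34.6% of all promoters. TGACGTCA was present in CCNA2 and CCNL1, which is 5.41% beside 1.85%. The E2F motif TTTCGCGC was present in CDK1 and CDK10, which is 5.41% beside 0.515%. The share with the CHR letters was lower in the 37 members than in all promoters, but all 4 with these letters are among the 5 G2 and mitosis members. The share of the other 3 motifs was higher, which for TGACGTCA and TTTCGCGC rests on 2 promoters each. Members have 1 promoter per gene here, whereas the 35116 count every entry. A match is a description of the letters and not a binding site.

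**Figure D2:**
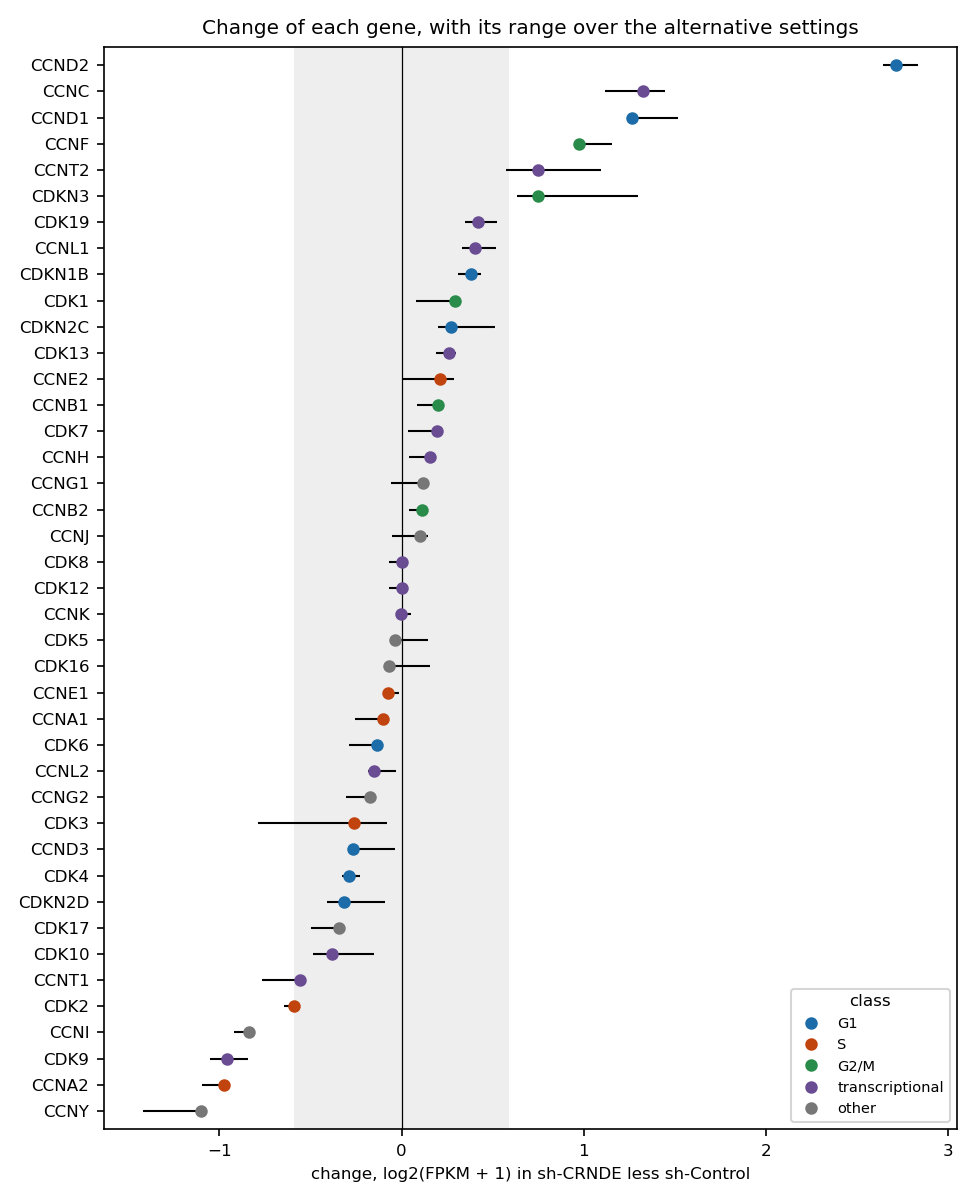
Change of each of the 41 members on the log2(FPKM + 1) scale, sh-CRNDE less sh-Control, in order of the change and coloured by class, with 1.5-fold as a shaded band and, as bars, the range over the other scalings, pseudocounts and filters. CCND2 lies farthest above 0 at 2.72 and CCNY farthest below at -1.10, and the 5 G2/M members all lie above 0.

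Of the 14 members that act on transcription, 2 rose and 1 fell, with a median change of 0.08. That is 21.4% of the class past 1.5-fold, beside 17.2% of all genes. Of the cyclins that rose, CCNC had a change unlike that of its kinase CDK8, and CCNT2 unlike that of CDK9. CCNT1, the other T cyclin of CDK9, had a change below 0, as CDK9 did. CCNC (chr6:99542387-99568825, minus strand, 12 exons), the cyclin of the Mediator kinase module, rose by 1.33, from 7.06 FPKM in control to 19.2 FPKM in knockdown cells, and 2.03% of all genes had a higher change. Its kinase CDK8 was at 16.4 FPKM in both libraries, a change of 0.004. The CDK8 paralogue CDK19 was at 3.36 FPKM in control and 4.83 FPKM in knockdown cells, a change of 0.42. The ratio of CCNC to summed CDK8 and CDK19 FPKM was 0.358 in control and 0.906 in knockdown cells. MED12, MED13 and MED13L, the other subunits of the module, were not past the threshold, and MED12 was the farthest from 0 of these 3 at -0.46.

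P-TEFb, the kinase that releases paused RNA polymerase II, consists of CDK9 with a T cyclin. CDK9 (chr9:127785679-127790792, plus strand, 7 exons) was at 15.2 FPKM in control and 7.35 FPKM in knockdown cells. It fell by 0.96, to 0.483 of the control level, and 3.50% of all genes had a lower change. CCNT2 (chr2:134918235-134959342, plus strand, 9 exons) rose by 0.75, from 1.47 FPKM in control to 3.16 FPKM in knockdown cells, but at 0.575 relative to genes of like GC content it was not past the threshold. CCNT1 was at 3.47 FPKM in control and 2.04 FPKM in knockdown cells, and its change of -0.56 was just short of the threshold, and past it at -0.74 with a pseudocount of 0.1.

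In FPKM, CCNT1 was the higher T cyclin in sh-Control and CCNT2 in sh-CRNDE, while their sum stayed close, at 4.94 FPKM in control and 5.20 FPKM in knockdown cells. CCNT1 made up 70.2% of that sum in control and 39.2% in knockdown cells. The ratio of summed T cyclin to CDK9 FPKM was 0.325 in control and 0.707 in knockdown cells.

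The remaining transcriptional members were not past the threshold. CDK7, the kinase of TFIIH and of the CDKs themselves, was at 13.2 FPKM in control and 15.3 FPKM in knockdown cells, and its cyclin CCNH was at 8.73 and 9.86 FPKM. The ratio of CCNH to CDK7 was 0.661 in control and 0.646 in knockdown cells. CCNK, the cyclin of CDK12 and CDK13, was at 7.42 FPKM in control and 7.39 FPKM in knockdown cells. CDK12 was at 5.36 and 5.37 FPKM and CDK13 at 5.79 and 7.13 FPKM in control and knockdown cells, changes of 0.002 and 0.26. Of the L cyclins, which are linked to pre-mRNA splicing, CCNL1 was at 2.92 and 4.19 FPKM, a change of 0.40, and CCNL2 at 5.11 and 4.51 FPKM, a change of -0.15. CCNL1 made up 36.4% of L cyclin RNA in control and 48.2% in knockdown cells. CDK10 was at 4.26 FPKM in control and 3.04 FPKM in knockdown cells, a change of -0.38.

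**Figure D3:**
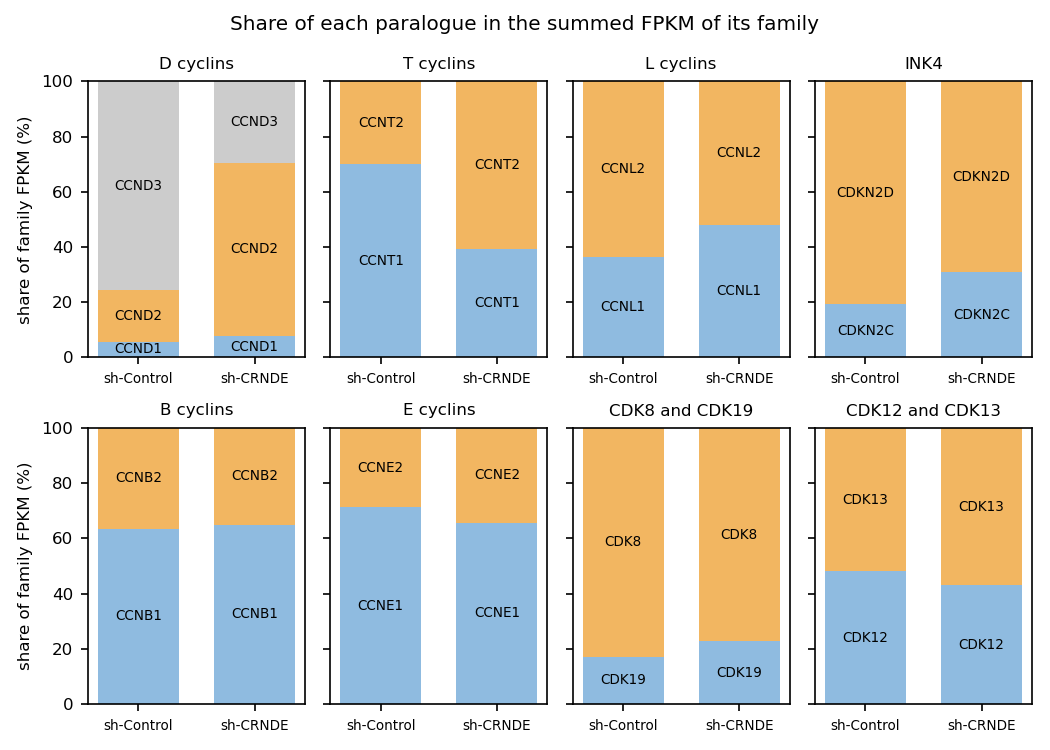
Share of each paralogue in the summed FPKM of its family, in percent, in sh-Control (left bar) and sh-CRNDE (right bar) for 8 families. CCND2 goes from 18.6% to 62.7% of the D cyclins and CCNT2 from 29.8% to 60.8% of the T cyclins, while CCNB1 stays at 63.5% and 64.9% of the B cyclins.

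Of the 8 members outside these classes, 2 fell and none rose, with a median change of -0.12. CCNY (chr10:35247025-35572669, plus strand, 10 exons), a membrane-bound cyclin that partners the CDK14 and CDK16 kinases, was at 5.74 FPKM in control and 2.14 FPKM in knockdown cells. It fell by 1.10, to 0.372 of the control level, and was the lowest change of any member, with 2.64% of all genes below it. CCNI (chr4:77047155-77076309, minus strand, 7 exons), an atypical cyclin abundant in non-dividing cells, was at 52.4 FPKM in control and 28.9 FPKM in knockdown cells, and fell by 0.84.

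The other 6 of this class were not past the threshold. CCNG1, a p53 target, was at 42.3 FPKM in control and 46.0 FPKM in knockdown cells, and CCNG2 was at 1.64 and 1.34 FPKM. CCNG1 made up 96.3% of G cyclin RNA in control and 97.2% in knockdown cells. CDK16, the partner of cyclin Y, was at 11.7 FPKM in control and 11.1 FPKM in knockdown cells, so this kinase had no change past the threshold while CCNY fell. CDK17 was at 4.63 FPKM in control and 3.45 FPKM in knockdown cells, a change of -0.34. CDK5, best known from neurons, was at 3.73 FPKM in control and 3.60 FPKM in knockdown cells. CCNJ was at 2.74 FPKM in control and 3.02 FPKM in knockdown cells.

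The study examined CRNDE as a sponge of the miR-181 family, so the members were read for sites of these miRNAs. The mature 5p strands are shown because all 4 have 1 seed, bases 2 to 8, in capitals. They are from RefSeq, GRCh38.p14.
miR-181a-5p: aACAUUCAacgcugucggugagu
miR-181b-5p: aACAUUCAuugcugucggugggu
miR-181c-5p: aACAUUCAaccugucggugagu
miR-181d-5p: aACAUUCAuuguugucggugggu

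The match to this seed on the mRNA is TGAATGT. It was present in the canonical 3′ UTR of 11 of the 41 members, or 26.8%, beside 21.4% of the protein-coding genes with a value. These were CCNB1, CDK1 and CDKN3 of G2 and mitosis, CDKN1B of G1, CCNT2, CCNK, CDK8 and CDK13 of the transcriptional members, and CCNG1, CCNG2 and CCNJ. Sites of the 2 that rose are shown with 8 bases on either side, on the plus strand of GRCh38, with the match in capitals.
CCNT2, chr2:134957836-134957858: tggtttctTGAATGTcatgagtg
CCNT2, chr2:134959182-134959204: tcattttcTGAATGTactcaaaa
CDKN3, chr14:54420162-54420184: tatcaactTGAATGTaaatgtac

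Among the 11 members with a site, 2 rose and none fell, 9 were above 0 and the median change was 0.20. Among the 30 without a site, 4 rose and 5 fell, and the median change was -0.09. A site here is the 7-base match TGAATGT only, and other kinds of miRNA site were not searched for. Over all protein-coding genes, 15.7% of those with a site (190 higher, 145 lower) and 15.6% of those without (534 higher, 682 lower) were past 1.5-fold. Their median change was 0.05 for the 2132 with a site and -0.03 for the 7813 without. GC content of the transcript moved with the site: the median was 41.6% in members with a site and 46.1% in members without, and 42.8% and 50.3% over all such genes. The median 3′ UTR length was 1346 bases in members with a site and 1166 in those without, and 2957 and 958 over all such genes. The part of GC content and length in the difference was not tested. Neither CCND2 nor CCNC, the members with the highest changes, has the 7-base match in its canonical 3′ UTR.

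Across genes that reached 1 FPKM in each library, the change moved with GC content. In 10 equal bins of these genes, its median was 0.19 in the bin of lowest GC content, 30.7% to 38.2%, and -0.33 in that of highest, 61.4% to 74.4%. The median GC content was 45.2% for the members, 41.9% for the G2 and mitosis members and 48.3% for all genes. Each change was also taken relative to the median of genes with like GC content, for which these genes were cut into 20 finer bins. This step was chosen after the data had been seen. The median of the G2 and mitosis members was then 0.08. CDK1 was then at 0.08 and CCNB1 at 0.08, both nearer 0 than before. CCNF was at 1.16 and CDKN3 at 0.63 after this step. CCNT2, at 0.575, was no longer past the threshold, whereas CCNT1, at -0.68, was.

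Reads of overlapping genes bear on a few members. The library kit named in the labels keeps no strand, so reads of a gene and of an antisense partner cannot be told apart. An exon overlap with another annotated gene was present in 19 members, antisense in 16 of them, and in 7 the partner had a value too. For CCNA2 the partner was EXOSC9, at 9.95 FPKM in control and 11.8 FPKM in knockdown cells, a change of 0.23 beside the -0.98 of CCNA2. For CCND1 the partner was ORAOV1, at 1.43 FPKM in control and 1.10 FPKM in knockdown cells. For CDK4 the partner was TSPAN31, at 2.30 FPKM in control and 3.92 FPKM in knockdown cells. CCND2 and CCNT2 overlap antisense RNAs that were not analysed here. CCND2 also overlaps an annotated gene on its own strand, which was not analysed here either. For 13 members, CCND2 and CCNT2 among them, the annotation has a pseudogene named after the gene, and how reads were split with it is uncertain.

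Other genes of the same pathways were counted from a list of 58, of which 55 had a value. Past 1.5-fold were 4 that rose and 3 that fell, beside 8.38% and 8.83% of all genes, which leaves 48, and the median change was -0.02. Among the pocket proteins and E2F factors, on which the G1 and S kinases act, RBL1 (p107) rose by 0.81, from 4.60 to 8.79 FPKM. In the same group TFDP1, the DNA-binding partner of E2F, fell by 0.61, from 73.8 to 47.9 FPKM. E2F5, a repressive E2F, was at 4.33 FPKM in control and 2.55 FPKM in knockdown cells, just past the threshold at -0.59. E2F3 and TFDP2 of this group were not past the threshold. Their plain ratios of FPKM, sh-CRNDE over sh-Control, were past 1.5-fold at 0.6619 and 0.6601.

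SKP2, which marks p27 for degradation, fell by 0.73, from 32.4 to 19.1 FPKM. It was the only 1 of 9 listed genes of cyclin degradation and the CKS proteins past the threshold, on the scale with a pseudocount of 1. The plain ratio of FPKM, sh-CRNDE over sh-Control, was past 1.5-fold for FBXW7 (1.88) and FZR1 (0.6385) of the same group. LIN52, a subunit of DREAM and MuvB, rose by 1.499, from 0.888 to 4.34 FPKM, and was the only 1 of 7 in that group past the threshold. LIN37 of that group, under 1 FPKM in both libraries, had a plain ratio of 2.24. MYBL2 was at 91.5 FPKM in control and 75.5 FPKM in knockdown cells, and FOXM1, another driver of mitotic genes, at 14.3 and 16.3 FPKM.

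Of the 8 listed regulators of P-TEFb, 2 rose and none fell, beside 8.38% and 8.83% of all genes. ELL2, with a plain ratio of 1.55, and ELL, with 0.703, were not past the threshold. LARP7, which holds P-TEFb in its inactive 7SK particle, rose by 0.81, from 9.62 to 17.7 FPKM. AFF4, the scaffold of the super elongation complex that carries active P-TEFb, rose by 1.04, from 4.02 to 9.29 FPKM. No gene was past the threshold among the 5 of inhibitory CDK phosphorylation, the 2 of CDK assembly, the 9 relatives and partners of the members, or the 3 other Mediator kinase subunits.

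**Figure D4:**
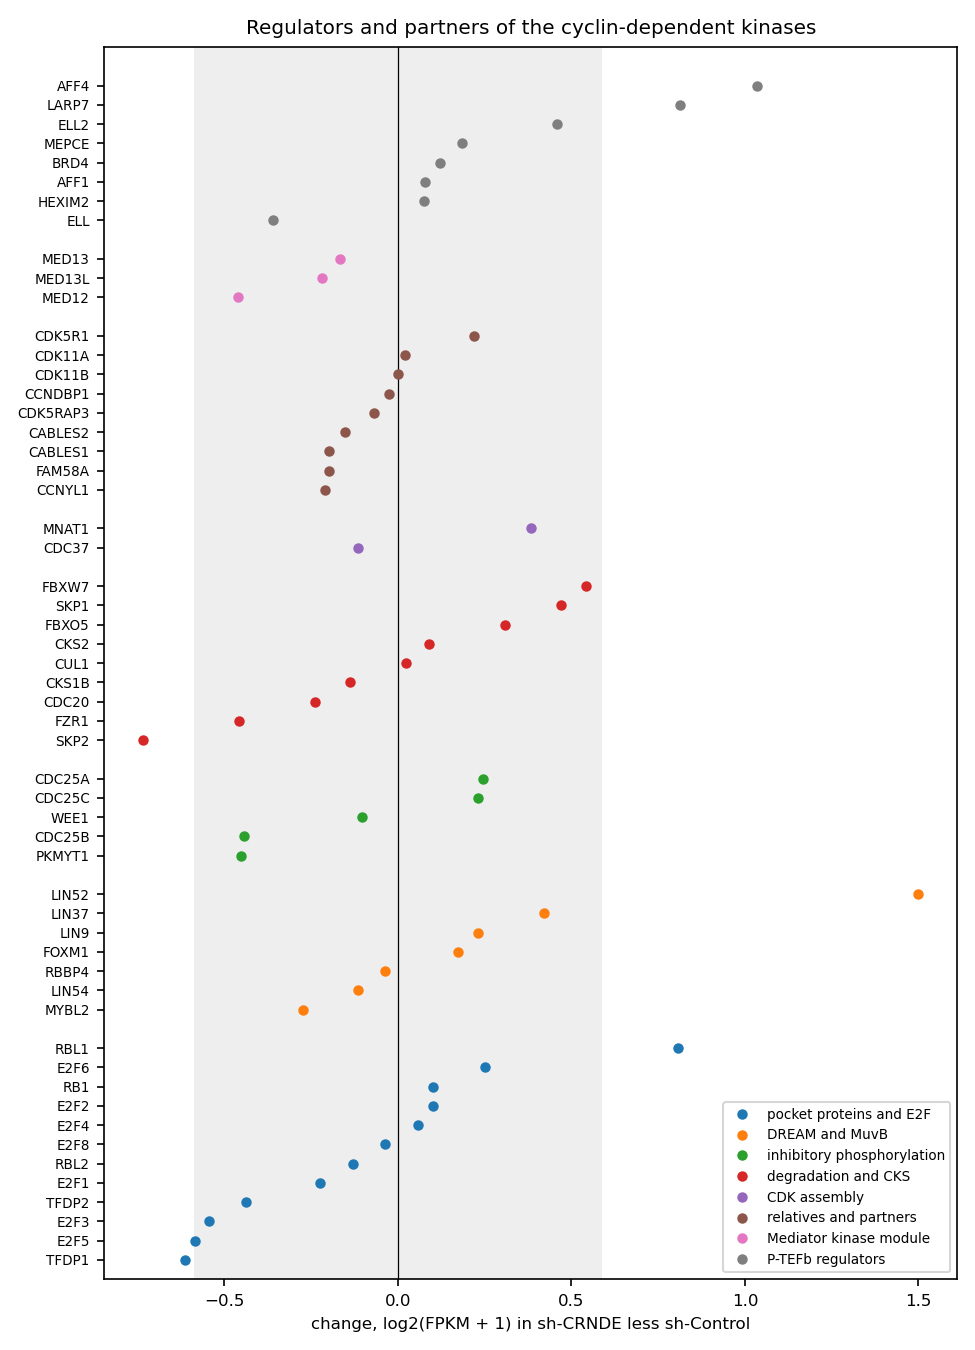
Change on the log2(FPKM + 1) scale of the 55 other pathway genes with a value, coloured by group, 1 point per gene, with 1.5-fold as a shaded band. LIN52, AFF4, RBL1 and LARP7 lie above the band and SKP2, TFDP1 and, at its edge, E2F5 below it.

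The cells were also read for cell type markers. Of 7 promyelocyte markers, 6 had a value, of which 4 fell (MPO, PRTN3, CTSG and AZU1) and 1, CEBPE, rose. Of all genes, 8.83% fell and 8.38% rose. CEBPE was at 0.748 FPKM in control and 8.75 FPKM in knockdown cells, an 11.7-fold ratio. The sum of the 6 was 1405 FPKM in control and 822.3 FPKM in knockdown cells. Most of this sum was MPO, at 1135 and 737.6 FPKM. Of the T cell markers 1 of 3 had a value, CD3D at 0.99 FPKM in control and 1.16 FPKM in knockdown cells, and B cell markers summed to 1.59 and 0.945 FPKM. EPCAM, the only 1 of 3 fibroblast or epithelial markers with a value, was at 4.82 and 4.49 FPKM, and no erythroid marker of 4 had a value. The part of the maturation state of the cells in the changes of the cyclins and CDKs was not tested.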

How the data were processed

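RNA was sequenced from NB4 cells with CRNDE shRNA or control shRNA, 1 library per group. The authors deposited FPKM values per gene. The submitters' processing notes name fastp 0.20.0, HISAT2 2.0.4, StringTie 1.2.3 and GRCh38, and the annotation release is not given in the sources used here. Every gene with a value exceeds 0.5 FPKM in at least 1 library (lowest maximum 0.5002). The low values showed no steps of whole reads: among 1082 genes under 0.8 FPKM in both libraries, at most 2 shared a ratio between libraries to 4 decimals. No counting interval could therefore be given.

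The pseudocount was 1 and the threshold 1.5-fold, without a filter. Members and gene lists were chosen with earlier results of these data known. Members, the listed pathway genes past the threshold and their partners are named by rule. MED12, MYBL2, FOXM1, FBXW7, FZR1, LIN37, ELL, ELL2, E2F3 and TFDP2 were chosen after their values were seen. Coordinates, GC content and 3′ UTRs are of canonical transcripts in GENCODE release 44, matched by Ensembl identifier for 11508 of 11619 genes. Alternatives were pseudocounts of 0.1 and 0.01, centring, quantile normalization, TPM computed after mitochondrial genes and genes of ribosomal and small RNAs were left out, a minimum mean of 1 FPKM, omission of genes with a 0, and a 2-fold threshold. Python 3.11.15, numpy 2.4.6, pandas 2.3.3 and matplotlib 3.10.9 were used.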

Additional observations from a re-analysis of the deposited data

How the results depend on the processing

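With 1 library per group no replicate could be left out, and no paired analysis was possible because each group has 1 library. Across the 8 alternatives to the scaling, pseudocount and filter, 9 of the 11 members past 1.5-fold stayed past it, and the exceptions were CDK2 (-0.58 when centred or quantile normalized) and CCNT2 (0.575 after GC subtraction). CCND2 ranged from 2.65 to 2.84, CCNC from 1.12 to 1.45, CCND1 from 1.26 to 1.52, CCNA2 from -1.09 to -0.97, CDK9 from -1.05 to -0.84 and CCNY from -1.42 to -1.09. The minimum mean of 1 FPKM and the omission of genes with a 0 alter no change, so called members could not move under them. No direction of a called member reversed, which these filters and the other pseudocounts could not have brought about. With a 2-fold threshold, 3 members were higher and 1 lower, beside 3.43% and 3.23% of all genes. The median of the S members was -0.43 with a pseudocount of 0.1, -0.45 with 0.01, -0.43 as TPM and -0.33 when members under a mean of 1 FPKM were left out. That of the G2 and mitosis members was 0.0837 after GC subtraction, chosen after the data had been seen. CCNT1 and CDK3 passed the threshold with pseudocounts of 0.1 (-0.74 and -0.67) and 0.01 (-0.77 and -0.79) and as TPM (-0.74 and -0.63), which gave 7 lower members. Over all genes these settings gave 1580 higher and 1721 lower, 1653 and 1828, and 1466 and 1667, beside 974 and 1026. TPM values are larger than FPKM values here, so a pseudocount of 1 weighs less on them. The TPM setting thus works much like a smaller pseudocount and is not a separate check on the low members. The alternatives for the other pathway genes were chosen after the data had been seen: with a pseudocount of 0.1, 7 were higher and 5 lower, with 0.01, 7 and 6, and as TPM, 7 and 5. E2F5 was not past the threshold when centred (-0.58) or quantile normalized (-0.55). None of 50 paralogue shares moved by more than 0.43 percentage points under quantile normalization of FPKM. Depth is unknown, so the precision of the low members, CCNA1 and CDK3 above all, could not be given.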
